A study of Arabidopsis thaliana with 57 samples.

Results

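The genes of the chloroplast genome were taken from an RNA-seq series on Arabidopsis thaliana as all rows whose identifier starts with ATCG. This gave 133 of the 28775 genes in the table. The values are regularized log values (rlog), a log2 scale on which genes with few reads are pulled towards their mean over the libraries, and a difference of 1 is a 2-fold difference. Of the 133 chloroplast-encoded genes, 62 had a mean rlog of 3 or more over the 51 libraries used and were tested. The other 71 lay below 3, and 15 of these were listed at 0 in every library.

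Plastids keep a small genome of their own, which encodes core subunits of the photosystems, the cytochrome complex, the ATP synthase and the NDH complex, the large subunit of Rubisco, ribosomal proteins and RNAs, and subunits of a bacterial-type RNA polymerase. This polymerase works with nuclear-encoded sigma factors and polymerase-associated proteins, beside a phage-type polymerase that is encoded in the nucleus. Most plastid genes are read in long transcripts that span neighbouring genes and are then cut, edited and protected by nuclear-encoded RNA-binding proteins.

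All plants were wild type of the accession Col-0 (genotype WT, written Col0 in the labels), a standard laboratory strain, and whole rosettes were harvested at 18 days of age, 6 h after the lights came on. Standard growth had day and night temperatures of 22 °C and 18 °C, a light intensity of 120 µmol m-2 s-1 and a relative humidity of 65%. In the end-point groups the stress started on day 15 and lasted until harvest. In the recovery groups it started on day 12 and was followed by 3 days under standard conditions.

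Recovery and end-point groups were analysed for 8 stresses. Cold plants had 12 °C in the day and 8 °C in the night with light lowered to 80 µmol m-2 s-1, and for cold with high light (Cold-HL) the light was 200 µmol m-2 s-1. Drought plants lacked water, and humidity plants stood in sealed, overwatered trays. Heat plants had 27 °C in the day and 23 °C in the night, and light was raised to 350 µmol m-2 s-1 for high light (HL). Heat-drought and heat with high light (Heat-HL) combined these conditions. The control group (Cont_recovery) had no stress, came from the recovery setup and served every control comparison, so those comparisons share its libraries. Each of the 17 groups had 3 libraries. Separate cultures are not named in the labels, so p-values speak only for the spread among the libraries, part of which may be technical.

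Depth per library is unknown, because the table holds no counts. The median rlog of the 19010 genes tested stood between 7.92 and 8.66 in the end-point libraries and between 7.84 and 8.11 in the recovery libraries, against 7.86 to 8.01 in the control libraries. For this reason each library was centred on its own median, and many results below are also given on the values as deposited. Direct comparisons between stresses and the sizes of differences of nuclear genes are mostly given relative to the library median only. Leaf mesophyll markers were abundant in these samples, with a mean rlog of 18.0 for RBCS1A (a Rubisco small subunit) and 15.7 for CA1 (carbonic anhydrase), while the meristem genes WUS and CLV3 and the flower gene AP3 averaged below 0. The other meristem markers, STM and KNAT1, averaged 6.20 and 5.99, and the flower markers AG and PI 3.63 and 2.90. Among the chloroplast-encoded genes 2 libraries stood apart. Replicate 3 of the humidity end-point held the highest as-deposited value of the series for 22 of the 62 genes, and replicate 2 of the cold with high light recovery did so for another 21. Relative to the library median these counts were 31 and 12. The library median of the latter replicate was 8.11, against 7.84 and 7.86 in the other libraries of its group.

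Chloroplast-encoded genes above and below a mean of 3 lay in runs along the identifiers, most of them short and a few long. The runs describe position and are not a ranking of abundance, since rlog is not scaled by gene length. Means over the 51 libraries ran from 3.02 to 8.99 among the 62 tested genes, with a median of 5.12. The other 56 genes with values different from 0 had means between -2.42 and 2.97. Just inside the threshold lay ATCG00210 at 3.02 and ATCG00590 at 3.14, and just outside it ATCG00290 and ATCG00400, both at 2.97. All 11 genes from ATCG00710 to ATCG00810 were above the threshold, as were the 8 from ATCG00120 to ATCG00190. All 11 genes from ATCG00820 to ATCG00910 and all 10 from ATCG01220 to ATCG01310 were below it, with 5 and 3 of them listed at 0. ATCG01310, annotated as ribosomal protein L2, averaged -1.66. The reference annotation holds 2 copies of this ribosomal gene, so how the authors' counting treated reads shared by the copies bears on its value. Copies of the other genes in the low runs were not looked up, so the same limit may hold for them.

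**Figure D1:**
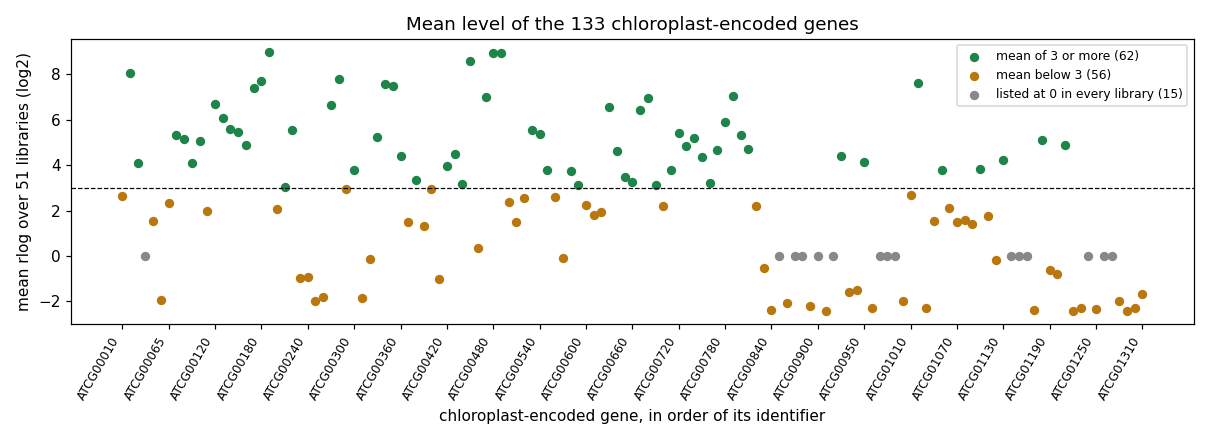
Mean rlog (y axis, log2) over 51 libraries of each of the 133 chloroplast-encoded genes, in order of identifier along the x axis; the dashed line marks a mean of 3. The 62 genes above the line run through most of the first part of the identifiers, and all 15 genes listed at 0 lie below it, 14 of them in the second part, from ATCG00820 on.

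Compared with all genes tested, the 62 chloroplast-encoded genes sat low on this scale. When the 19010 genes were split into quartiles of mean rlog, with limits at 3.00, 6.44, 8.08, 9.39 and 18.4, 45 of the 62 fell in the lowest quartile, 13 in the next, 4 in the one above it and 0 in the highest. As deposited, the range of their means over the 17 groups had a median of 0.40 and exceeded 1 for 5 genes. Relative to the library median it had a median of 0.84 and exceeded 1 for 14. On that scale the genes listed at 0 in every library also had a range of 0.74, which comes from the library medians alone. The median SD within a group was 0.09 as deposited. Only 6 identifiers carry a product in the notes of the reference used here, namely ATCG00430 (photosystem II reaction center protein G), ATCG00530 (CemA-like), ATCG00660 (ribosomal protein L20), ATCG00670 (the plastid-encoded ClpP, a subunit of the stromal protease), ATCG00750 (ribosomal protein S11) and ATCG01310. The other genes are given by identifier.

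As a class, the chloroplast-encoded genes had nearly the same median in all these groups on the deposited scale, while the library medians differed. The median of the 62 genes was 5.16 ± 0.03 in heat-drought, 5.16 ± 0.09 in drought, 5.18 ± 0.06 in Cold-HL and 5.12 ± 0.07 in cold end-points, against 5.09 ± 0.05 in the controls (SD, n = 3 each). In the same end-points the library median was 8.65, 8.45, 8.42 and 8.25, against 7.91 in the controls. Relative to the library median the 62 genes therefore stood at -3.49 ± 0.02, -3.29 ± 0.21, -3.24 ± 0.08 and -3.13 ± 0.05 in these 4 end-points and at -2.82 ± 0.08 in the controls. The 3 libraries of each of these end-points lay below all 3 control libraries on the centred scale, and overlapped with them or lay above them on the deposited scale. Whether these genes or the rest of the transcriptome moved cannot be told from values without an external standard.

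**Figure D2:**
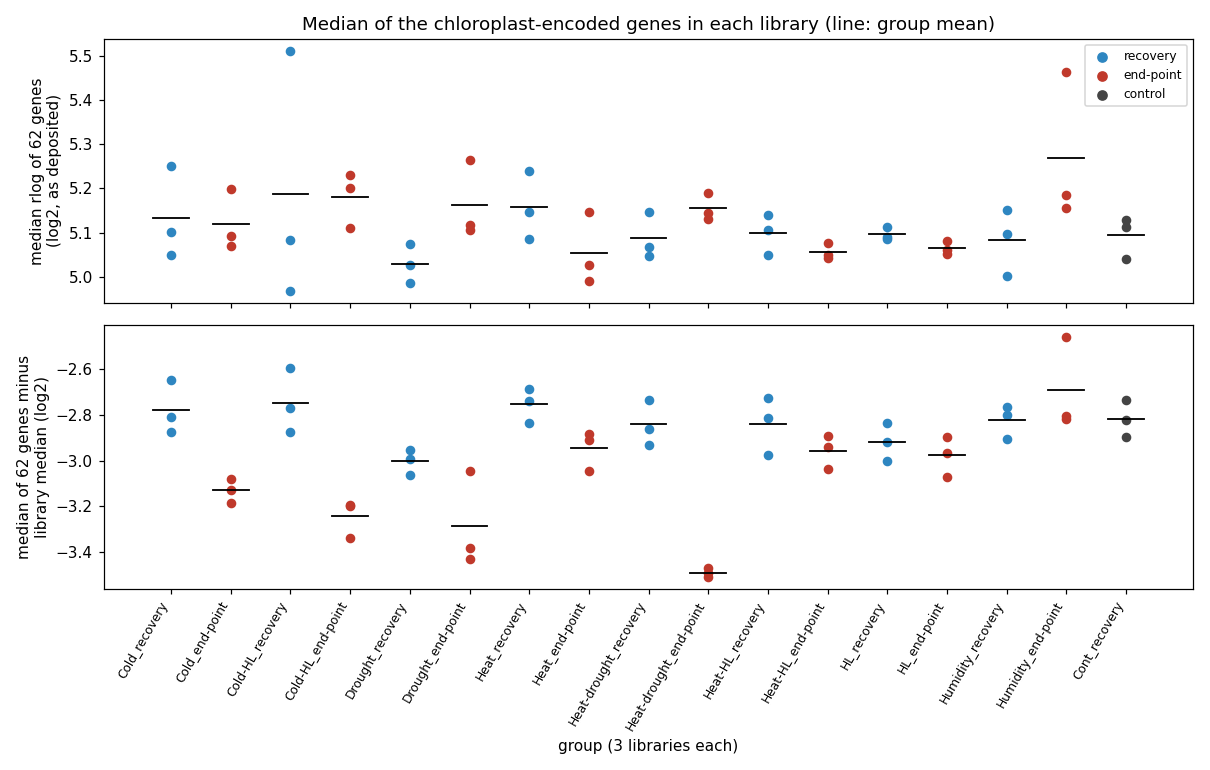
Median of the 62 chloroplast-encoded genes in each library, as deposited (top, log2) and minus the library median (bottom, log2), for 17 groups of 3 libraries on the x axis; points are libraries and lines are group means. The end-points of cold, cold with high light, drought and heat-drought lie low in the bottom panel, at group means from -3.13 to -3.49, and not in the top panel.

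The counts of called genes followed the same split between the scales. A gene was called at a Benjamini-Hochberg adjusted p under 0.05 in limma, adjusted over all 19010 genes. In heat-drought end-points 56 of the 62 genes were lower and 0 higher than in controls relative to the library median, where 46.5% of all genes were called lower and 32.2% higher. As deposited 6 were lower and 11 higher (13.2% and 66.7% of all genes). In drought 54 were lower and 0 higher (42.2% and 25.3% of all genes), against 3 lower and 8 higher as deposited (9.57% and 61.4%). In cold with high light 45 were lower and 3 higher (29.4% and 23.3% of all genes), against 0 lower and 12 higher as deposited (2.53% and 68.2%). In cold 36 were lower and 3 higher (21.7% and 18.3% of all genes), against 0 lower and 11 higher as deposited (2.17% and 54.2%). The cold count of 39 called genes was 24 without control replicate 2 and 25 without cold end-point replicate 2.

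The median difference of the 62 genes had opposite signs on the 2 scales in these 4 end-points. It was -0.66 relative to the library median and 0.08 as deposited in heat-drought, and -0.48 and 0.05 in drought. Cold with high light gave -0.42 and 0.10, and cold gave -0.31 and 0.03. Genes of similar level shared part of this in the lowest quartile of mean rlog. There the centred median of all genes was -0.50 in heat-drought, -0.36 in drought and -0.24 in cold. The 45 chloroplast-encoded genes of that quartile had -0.69, -0.49 and -0.30. In the next quartile the 13 chloroplast-encoded genes had -0.40, -0.41 and -0.36, against -0.08, -0.08 and -0.04 for all genes. The 4 in the quartile above it had -1.25, -0.67 and -0.30, against 0.09, 0.04 and 0.04. Of the genes below a mean of 3, the 26 with any value above 0 were all called lower in these 4 end-points when the filter was dropped, where 52% of all genes were lower in heat-drought, 48.6% in drought, 37.9% in Cold-HL and 31.1% in cold. Their median differences as deposited were between 0.01 and 0.03. A gene that stays near a constant value takes on the shift of the library median when centred. These calls therefore describe that shift and are no separate result about the 26 genes. Only genes called in the same direction relative to the library median and as deposited are written below as having risen or fallen. In these 4 end-points the rule was strict for falls only, since the library medians lay above those of the controls. Every gene called higher relative to the library median was also called higher as deposited, 3474 of 3474 in cold and 6116 of 6116 in heat-drought. Of the 4116 genes called lower in cold, 412 were also lower as deposited. The deposited scale is no added check on rises here, nor on falls from these end-points to recovery.

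**Figure D3:**
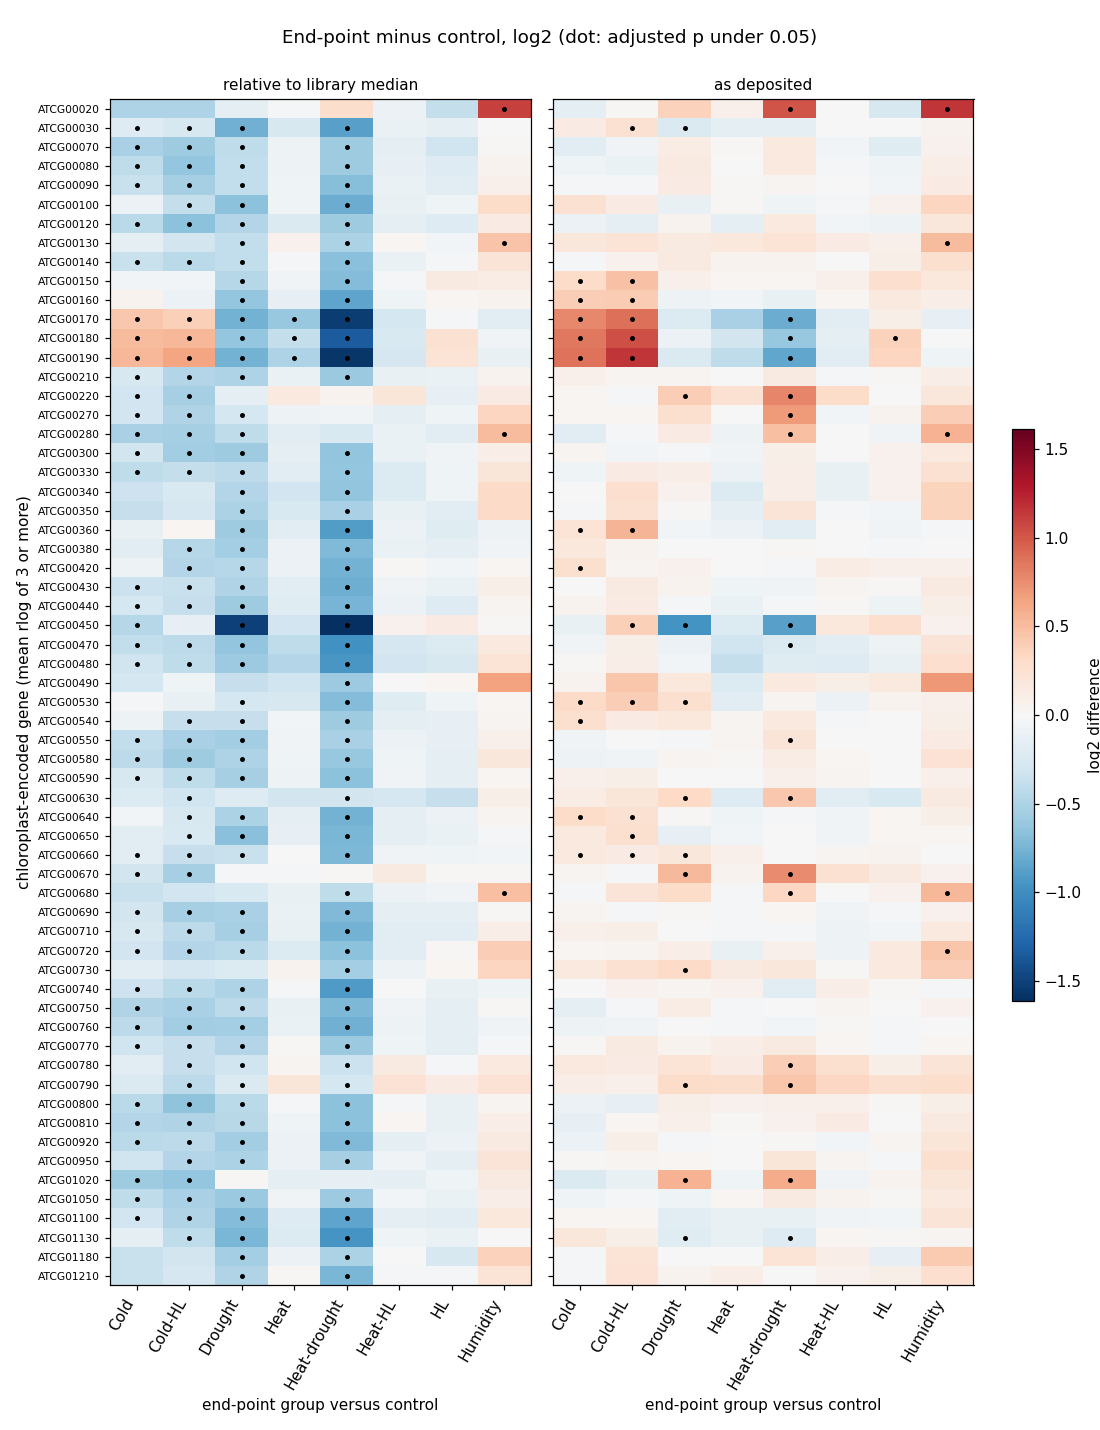
End-point minus control (colour, log2) for the 62 chloroplast-encoded genes (rows, by identifier) in 8 stresses (columns), relative to the library median on the left and as deposited on the right; dots mark an adjusted p under 0.05. The broad blue of cold, cold with high light, drought and heat-drought on the left is absent on the right, while the rows ATCG00170 to ATCG00190 and ATCG00450 keep their colour in the end-points where they are called on both scales.

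The neighbouring identifiers ATCG00170, ATCG00180 and ATCG00190 rose in both cold treatments and fell in heat-drought. ATCG00190 had as-deposited values of 9.91, 10.13 and 10.24 in cold with high light and 9.73, 9.83 and 9.89 in cold, against 8.76, 8.84 and 9.22 in controls. Its heat-drought values were 8.03, 8.14 and 8.16. The cold libraries of either treatment were all above the controls and the heat-drought libraries all below them, with no overlap.

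Relative to the library median, ATCG00190 was 0.64 ± 0.13 higher in cold with high light (SE, adjusted p = 4.28e-05) and 0.54 ± 0.13 higher in cold (adjusted p = 0.000773), and its fall in heat-drought was -1.57 ± 0.13 (adjusted p = 2.06e-14). As deposited the differences were 1.15, 0.88 and -0.83, all past the threshold. ATCG00180 moved alike, with centred differences of -1.34 in heat-drought, 0.53 in Cold-HL and 0.51 in cold. ATCG00180 read 8.52, 8.60 and 8.79 in cold with high light, 8.33, 8.47 and 8.51 in cold and 6.90, 7.01 and 7.05 in heat-drought, against 7.39, 7.63 and 7.75 in controls. Again none of the 3 stress groups overlapped with the controls.

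ATCG00170 gave the same picture at a lower level. Its as-deposited values were 8.26, 8.28 and 8.37 in cold with high light, 8.06, 8.17 and 8.30 in cold and 6.54, 6.65 and 6.65 in heat-drought, against 7.21, 7.25 and 7.77 in controls. The centred differences were 0.38 ± 0.13 (adjusted p = 0.0129), 0.43 ± 0.13 (adjusted p = 0.00746) and -1.53 ± 0.13 (adjusted p = 7.68e-14). The cold calls of this gene depended on the controls: without control replicate 3 they were 0.30 in cold with high light (adjusted p = 0.0818) and 0.35 in cold (adjusted p = 0.0563), and without control replicate 2 the first was 0.32 (adjusted p = 0.0641).

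These 3 genes were the only ones among the 62 that rose in cold or in cold with high light on both scales, where 18.3% and 23.3% of all genes did so. Measured against the median of the 62 chloroplast-encoded genes instead, they were also higher in both treatments, by 0.74 to 0.85 in cold (43.6% of all genes were higher) and 0.81 to 1.07 in cold with high light (56.2%), and lower in heat-drought, at -0.67 to -0.89 (13.6% of all genes were lower). The mean of the 3 above that median was 3.83 ± 0.14 in cold with high light, 3.69 ± 0.10 in cold, 3.19 ± 0.18 in high light, 2.64 ± 0.05 in drought, 2.52 ± 0.26 in heat and 2.08 ± 0.03 in heat-drought end-points, against 2.89 ± 0.21 in controls (SD, n = 3 each). The control libraries ran from 2.75 to 3.13. The high light libraries, at 3.06, 3.11 and 3.40, overlapped with them, and all 3 drought libraries, at 2.60 to 2.69, lay below them. The heat libraries read 2.24, 2.57 and 2.75, so that 2 lay below every control and the highest was level with the lowest control.

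These genes differed in a direct comparison of the cold end-points with the warm ones, of which heat-drought also lacked water. They were named for their calls against the controls in the same libraries, so this comparison gives sizes and no separate support. Cold with high light exceeded heat-drought by 1.91 ± 0.13 for ATCG00170, 1.87 ± 0.09 for ATCG00180 and 2.21 ± 0.13 for ATCG00190, and heat alone by 0.99, 0.91 and 1.14. Cold exceeded heat-drought by 1.96 ± 0.13 for ATCG00170, 1.85 ± 0.09 for ATCG00180 and 2.10 ± 0.13 for ATCG00190 (SE, relative to the library median). Cold exceeded heat alone by 1.04, 0.89 and 1.04, and limma's adjusted p was at most 2.43e-08 in all of these. Of the 62 genes, 41 were higher and 4 lower in cold than in heat-drought (46.1% and 33.3% of all genes), and 3 were higher and 21 lower in cold than in heat (23.2% and 22.7%). In cold with high light 33 were higher and 5 lower than in heat-drought (44.8% and 34%), and 3 higher and 35 lower than in heat (26.3% and 30.9%). In heat end-points themselves, the 3 genes were the only chloroplast-encoded genes called against controls, at -0.61, -0.38 and -0.50 (0.431% of all genes were lower), and 0 of the 62 were called as deposited (0.684% of all genes), where 8 of the 62 had an unadjusted p under 0.05. The heat count was 0 without heat end-point replicate 1 or without control replicate 1, and 1 without heat end-point replicate 3 or control replicate 2. High light gave 0 calls relative to the library median (1.09% of all genes were called), 1 without control replicate 1, and 1 as deposited, ATCG00180 at 0.37 (3.02% of all genes were higher).

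The identifiers next to this block moved with it in part. ATCG00160 read 5.12, 5.22 and 5.32 in cold with high light and 5.04, 5.23 and 5.34 in cold, against 4.77, 4.78 and 4.87 in controls. It was called higher as deposited and against the chloroplast median in both treatments, at 0.41 and 0.40 on the deposited scale, but not relative to the library median. The same was true of ATCG00150, at 0.47 and 0.30. Over the 17 group means, measured against the chloroplast median, the profile of ATCG00180 correlated with those of ATCG00190 (r = 0.99) and ATCG00170 (r = 0.98), ATCG00160 with ATCG00170 (r = 0.92) and ATCG00150 with ATCG00160 (r = 0.85). Across all 40 pairs of neighbouring tested identifiers the median r was 0.51, and across the 1851 other pairs it was 0.07. These points share their libraries and the centring, and the values describe the profiles only.

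ATCG00450 fell in drought and in heat-drought. Its values were 7.56, 7.59 and 7.93 in drought and 7.50, 7.82 and 8.01 in heat-drought, against 8.40, 8.69 and 8.87 in controls. Every library of either stress lay below every control library. The centred differences were -1.50 ± 0.16 in drought (SE, adjusted p = 3.13e-10) and -1.61 ± 0.16 in heat-drought (adjusted p = 1.58e-11), and the deposited ones -0.96 and -0.88. In heat without drought it read 8.11, 8.48 and 8.72, which overlapped with the controls and was not called.

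Smaller falls on both scales were found for ATCG00030 and ATCG01130 in drought and for ATCG00470 and ATCG01130 in heat-drought. ATCG00030 read 3.86, 3.87 and 3.90 in drought, against 4.10, 4.10 and 4.14 in controls, without overlap. Its centred difference was -0.78 and its deposited one -0.24. ATCG01130 had deposited differences of -0.20 in drought and -0.21 in heat-drought, and ATCG00470 one of -0.24 in heat-drought. In all, 3 of the 62 genes fell on both scales in drought and 6 in heat-drought, where 9.57% and 13.2% of all genes did, and 0 rose in either, where 25.3% and 32.2% did.

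The ClpP gene, ATCG00670, and several other genes were higher in the dry treatments only on the deposited scale. ATCG00670 read 6.62, 6.95 and 6.96 in drought and 6.86, 7.15 and 7.22 in heat-drought, against 6.24, 6.36 and 6.36 in controls. Neither stress group overlapped with the controls. The deposited differences were 0.52 ± 0.11 and 0.76 ± 0.11 (SE), both past the threshold, while those relative to the library median were -0.02 and 0.02 and were not called. Against the chloroplast median they were 0.45 and 0.70, both called, where 52.6% and 61.7% of all genes were called higher.

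The highest of these deposited differences in heat-drought belonged to ATCG00020, with values of 8.92, 8.99 and 8.995, against 7.88, 7.97 and 8.00 in controls. The deposited difference was 1.02 ± 0.30 (SE, adjusted p = 0.0023), and the centred one 0.28 with an adjusted p of 0.398. ATCG00220, ATCG00270 and ATCG01020 followed with deposited differences of 0.79, 0.68 and 0.60 and centred ones that were not called. In drought ATCG01020 was higher by 0.56 and ATCG00220 by 0.39 as deposited, again without a call relative to the library median. ATCG00020 was at 8.27, 8.33 and 8.37 in drought, above all controls, but this 0.38 was not called on either scale. All groups shared the estimated spread of a gene in the fit, and for ATCG00020 it included the humidity end-point library at 10.64. In the humidity comparison the centred SE of this gene was 0.31, and 0.16 without that library. The missing calls of ATCG00020 in drought and heat-drought carry this limit.

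The other annotated genes showed the split of the scales without a call in the same direction on both. ATCG00530 (CemA-like) was higher as deposited in cold with high light by 0.40, in cold by 0.30 and in drought by 0.25, but relative to the library median it was at -0.12, -0.04 and -0.28. The 2 ribosomal proteins were lower relative to the library median in all 4 broad end-points, with values in heat-drought of -0.73 for ATCG00660 and -0.72 for ATCG00750. As deposited ATCG00660 was higher in cold, cold with high light and drought, by 0.14 to 0.18, and ATCG00750 was not called. ATCG00430, the photosystem II protein, was at -0.79 relative to the library median in heat-drought and at -0.06 as deposited.

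**Figure D4:**
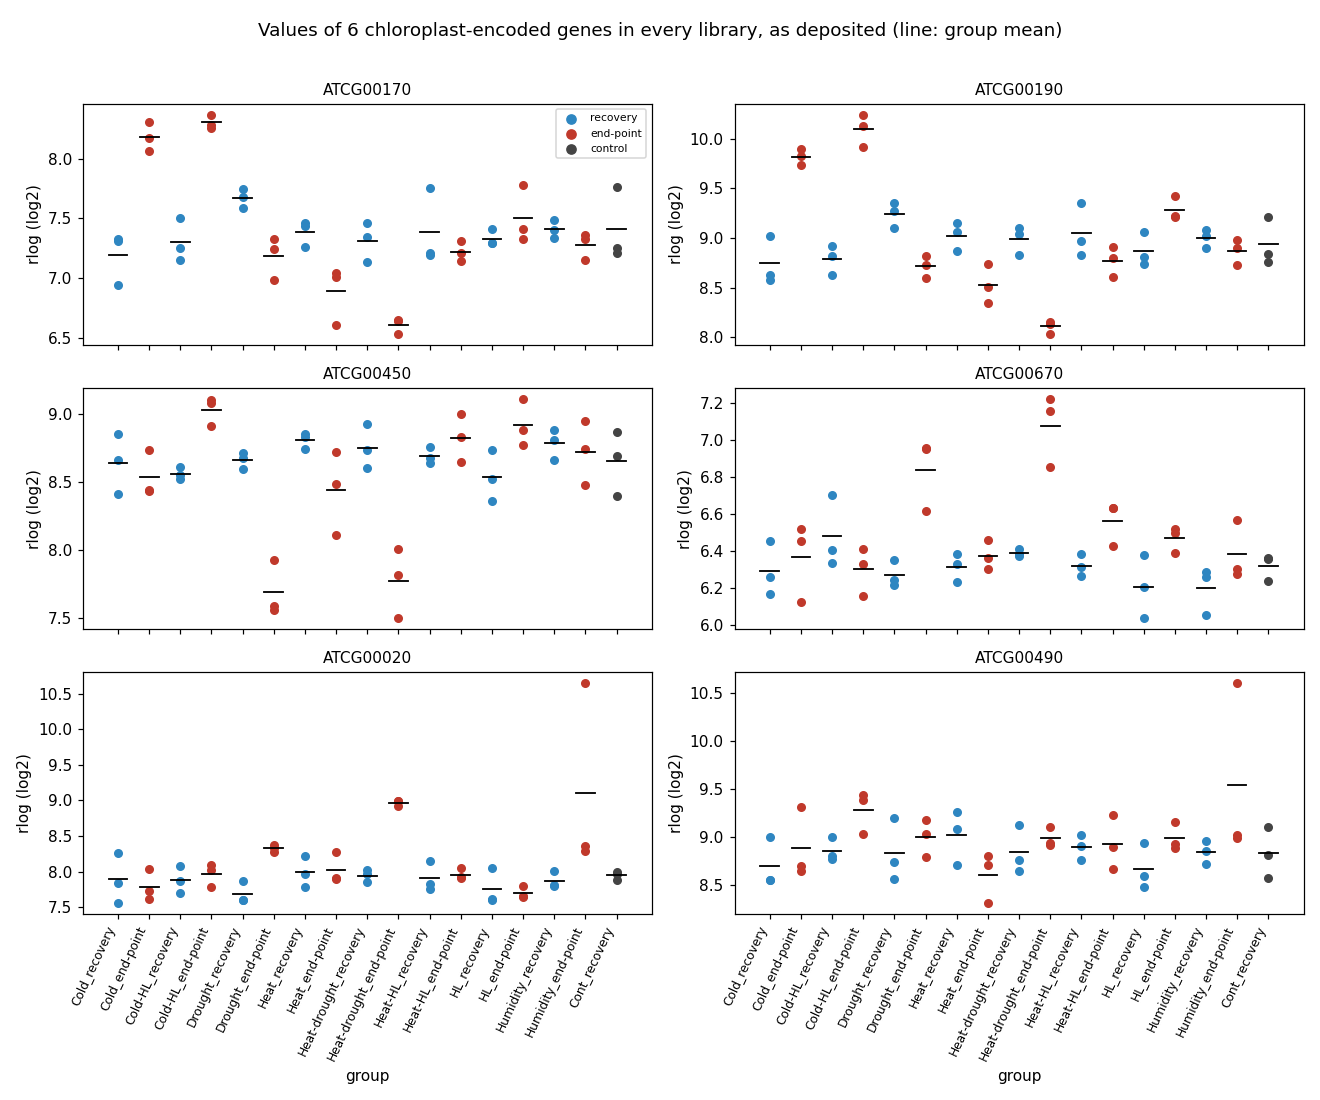
As-deposited rlog (y axes, log2, each with its own range) of 6 chloroplast-encoded genes in the libraries of 17 groups (x axis); points are libraries and lines are group means. ATCG00170 and ATCG00190 are high in both cold end-points and low in heat-drought, ATCG00450 is low in drought and heat-drought, and single libraries at 10.64 and 10.60 stand out in the humidity end-point of ATCG00020 and ATCG00490.

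In the humidity end-points 4 genes were higher on both scales, ATCG00020 at 1.1004, ATCG00280 at 0.51, ATCG00680 at 0.49 and ATCG00130 at 0.46 relative to the library median, where 3.36% of all genes were called higher. These calls depended on single libraries. ATCG00020 read 8.29, 8.36 and 10.64 in the humidity end-points, against 7.88, 7.97 and 8.00 in controls, and the highest value was replicate 3. Without that library 0 of the 62 genes were called, 2 had an unadjusted p under 0.05, and ATCG00020 differed by 0.31 ± 0.16 (SE, adjusted p = 0.448), while 429 of the 19010 genes were still called. The count was also 0 without control replicate 1 or 3, and it was 7 and 9 without humidity end-point replicates 1 and 2.

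In replicate 3 of the humidity end-point 46 of the 62 genes exceeded both other libraries of the group and 8 lay below both. The gap to the mean of the other libraries was over 0.5 for 13 genes, with a median of 0.20, and was widest for ATCG00020 at 2.32 and ATCG00490 at 1.59. ATCG00490 read 8.997, 9.02 and 10.60 in this group, against 8.58, 8.82 and 9.11 in controls. Of the genes below a mean of 3, ATCG00400 had the widest range of group means, 0.46, for the same reason, with 3.06, 3.08 and 3.82 in the humidity end-points, against 2.92, 3.00 and 3.00 in controls. ATCG00170, ATCG00180 and ATCG00190 were not raised in that library. What set it apart was not tested.

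**Figure D5:**
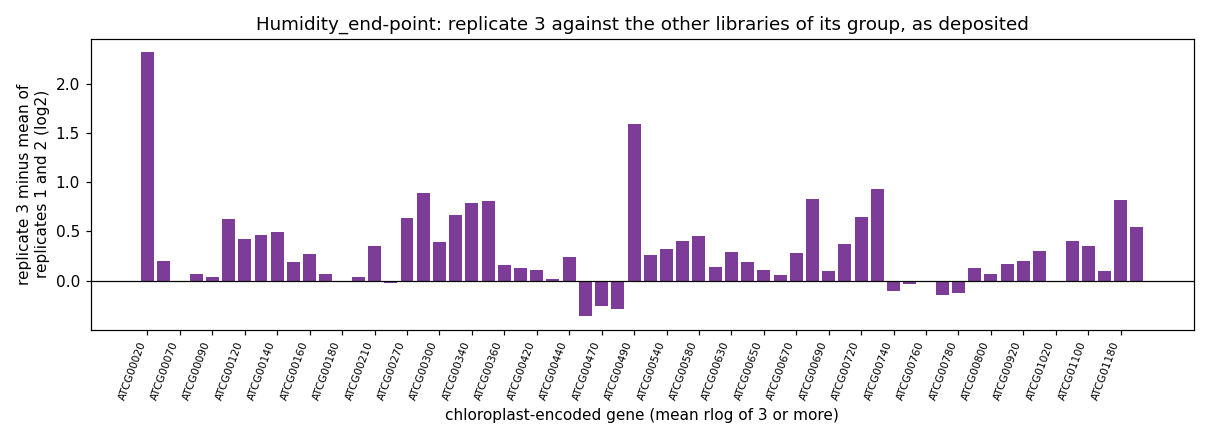
Humidity end-point replicate 3 minus the mean of replicates 1 and 2 (y axis, log2, as deposited) for each of the 62 chloroplast-encoded genes on the x axis, with every other identifier labelled. The bars of ATCG00020 and ATCG00490 reach 2.32 and 1.59, and most other bars are positive with a median of 0.20.

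After 3 days of recovery, 0 of the 62 genes were called against the controls in any of the 8 stresses, relative to the library median or as deposited. The same test called 0 of the 19010 genes, 0%, on either scale. At an unadjusted p under 0.05, on the centred scale, 13 of the 62 genes passed after drought and 7 after high light, where 15% and 8.79% of all genes did. After cold with high light 0 of the 62 passed, where 12% of all genes did, and after each of the other stresses at most 1 did. A missing call does not show that the levels had returned, and the spans remained up to -0.42 for the lowest gene after drought and 0.31 for the highest after cold.

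Recovery samples differed from their own end-points where the end-points had differed from controls. Relative to the library median, 55 of the 62 genes were higher and 0 lower in heat-drought recovery than at its end-point (45.9% and 32.1% of all genes), and as deposited 4 were higher and 13 lower (13% and 66.2%). In recovery from cold with high light 48 were higher and 3 lower (32.2% and 27.1% of all genes), against 5 higher and 11 lower as deposited (3.57% and 64%). Recovery from drought gave 43 higher and 1 lower (39.3% and 24.6%), against 5 and 11 as deposited (10.5% and 54.7%). Recovery from cold gave 34 higher and 3 lower (20.8% and 17.3%), against 2 and 13 as deposited (1.91% and 54.5%).

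On both scales ATCG00170, ATCG00180 and ATCG00190 fell in recovery from both cold treatments and rose in recovery from drought and heat-drought, relative to the end-points. ATCG00190 read 8.63, 8.82 and 8.92 in recovery from cold with high light, against 9.91, 10.13 and 10.24 at its end-point, a centred difference of -0.81 ± 0.13 (SE, adjusted p = 6.07e-07). In recovery from heat-drought it read 8.83, 9.04 and 9.11, against 8.03, 8.14 and 8.16 at the end-point, a difference of 1.60 ± 0.13 (adjusted p = 1.23e-14). The values of recovery and end-point did not overlap in either case, and both recoveries overlapped with the controls. For drought, the end-point fall of ATCG00190 was called relative to the library median, at -0.76, but not as deposited, at -0.23. Above the median of the 62 chloroplast-encoded genes, the mean of the 3 genes was 3.24 ± 0.09 in drought recovery (SD, n = 3). Its libraries, at 3.15 to 3.33, all lay above the control libraries, at 2.75 to 3.13. None of the 3 genes was called against the controls there.

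ATCG00450 rose in recovery from drought and heat-drought. It had 8.60, 8.67 and 8.72 in drought recovery, against 7.56, 7.59 and 7.93 at the drought end-point, and 8.60, 8.73 and 8.93 in heat-drought recovery, against 7.50, 7.82 and 8.01 at that end-point. The centred differences were 1.39 ± 0.16 (SE, adjusted p = 2.29e-09) and 1.69 ± 0.16 (adjusted p = 4.69e-12). ATCG01020 rose on both scales in recovery from cold and from cold with high light, by 0.63 and 0.76 relative to the library median, and fell by 0.29 in recovery from drought.

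The milder stresses gave few differences between recovery and end-point. In heat 3 genes were higher in recovery, again ATCG00170, ATCG00180 and ATCG00190 (0.405% of all genes were higher), and of these ATCG00190 was also called as deposited, at 0.49 (0.179%). The heat count was 0 without end-point replicate 1 and 1 without recovery replicate 1 or 3. In high light ATCG00180 was lower in recovery by 0.35 (1.37% of all genes were lower). That count was 0 without end-point replicate 2 or 3 or recovery replicate 2 or 3, and 2 without recovery replicate 1. In heat with high light 0 of the 62 genes were called in recovery against end-point and 0 at the end-point against controls, where 0.184% and 0.242% of all genes were called. In humidity 3 genes were lower in recovery, ATCG00020, ATCG00270 and ATCG00280 (4.57% of all genes were lower), and 0 of the 62 were called without replicate 3 of the end-point or without recovery replicate 1 or 2, against 8 without end-point replicate 1 or 2.

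Nuclear genes that serve plastid transcription were described beside these genes. All 12 polymerase-associated proteins (PAPs), which bind the plastid-encoded RNA polymerase, rose in cold and in cold with high light on both scales, with median differences relative to the library median of 0.69 and 0.95, where the median of all genes was -0.04 and -0.05 and 18.3% and 23.3% of all genes rose on both scales. PAP9 rose most in cold, by 1.03 ± 0.12 (SE, adjusted p = 1.91e-08). In drought all 12 were lower relative to the library median (median -0.86), and 9 also as deposited, where 42.2% and 9.57% of all genes were. In heat-drought all 12 were lower relative to the library median (median -0.81), and 3 also as deposited, where 46.5% and 13.2% of all genes were.

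The list of phage-type RNA polymerases is not limited to plastid enzymes. All 3 on it rose in cold and in cold with high light, where 18.3% and 23.3% of all genes rose on both scales. RPOTP, the plastid enzyme, rose by 0.91 ± 0.11 in cold and 1.17 ± 0.11 in cold with high light (SE, adjusted p = 6.79e-08 and 5.58e-11). In heat-drought RPOTMP rose by 0.65, and RPOTP at 0.18 and RPOTM at -0.10 were not called relative to the library median.

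The 6 sigma factors, which guide the plastid-encoded polymerase to promoters, did not move as a group. SIG5 averaged 11.2 in drought and 11.9 in heat-drought, against 8.96 in controls, and rose by 1.68 ± 0.20 and 2.21 ± 0.20 relative to the library median (SE, adjusted p = 3.67e-09 and 2.14e-12). In cold SIG5 fell by 1.01. SIG6 rose by 0.63 in cold and 0.81 in cold with high light and fell by 0.80 in drought, and in heat-drought its -0.93 was called relative to the library median only. SIG3 rose in drought and heat-drought by 0.40 and 0.42. SIG2 rose in cold with high light by 0.34 and fell in drought by 0.83.

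Of 14 nuclear genes for plastid RNA processing and stability, 10 rose in cold and 10 in cold with high light on both scales (18.3% and 23.3% of all genes), led in cold by RNJ (the plastid RNase J) at 1.53 ± 0.15 and CP29A (an RNA-binding protein) at 1.36 ± 0.25 (SE). In drought 7 of the 14 fell on both scales (9.57% of all genes), and in heat-drought 8 fell and 1 rose (13.2% and 32.2%). CSP41B, an RNA-binding protein, fell in heat-drought by 2.06. Of 25 nuclear-encoded subunits of the complexes that also hold plastid-encoded subunits, 14 fell on both scales in heat-drought, 5 in drought and 1 in cold with high light, where 13.2%, 9.57% and 2.53% of all genes did. In cold 1 of them rose and in cold with high light 1 rose, where 18.3% and 23.3% of all genes rose. RBCS1B, a Rubisco small subunit, fell by 3.33 in heat-drought and by 2.63 in drought. The RBCS genes are near-identical copies, so the values of single copies are uncertain.

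The mesophyll markers moved with the dry treatments: CA1, RBCS1A and LHCB1.1 were lower in heat-drought, at -2.65, -2.38 and -2.01, and in drought, at -1.54, -1.42 and -0.87, relative to the library median. GLDP1 was not called on that scale, and in cold none of the 4 was. In whole rosettes, fewer cells of a type and less RNA per cell cannot be told apart. The part of these markers in the values of the chloroplast-encoded genes was not tested.

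The mitochondrial genome offered a comparison with another organelle. The table holds 146 genes of it, and 14 of these were tested. Relative to the library median 8 were lower and 1 higher in heat-drought (46.5% and 32.2% of all genes), 7 and 1 in drought (42.2% and 25.3%), 7 and 2 in cold with high light (29.4% and 23.3%) and 5 and 2 in cold (21.7% and 18.3%). As deposited 1 was lower and 8 higher in heat-drought (13.2% and 66.7% of all genes). In the other 3 end-points 0 were lower as deposited, with 5 higher in drought, 12 in cold with high light and 4 in cold, where 61.4%, 68.2% and 54.2% of all genes were higher. No test of a difference between the organelles was made.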

How the data were processed

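RNA was sequenced from rosettes of wild-type Arabidopsis, and the authors deposited rlog values, a log2 scale. DESeq2, featureCounts, STAR and Trimmomatic, with the build TAIR10, are named in the submitters' processing notes; versions, strand setting and RNA selection are not given in the sources used here. No counts were used, so depth and counting error are unknown. Of the value columns, 51 matched a sample by name; another 6 did not and were not used, so the combination of heat, drought and high light was not analysed here. The members and the gene lists were chosen with earlier results of these data known.

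Libraries were centred on their median over the 19010 genes with a mean rlog of at least 3. Differences were tested with limma 3.58.1 in R 4.3.3 (with the data.table package, version 1.17.8), 1 mean per group over 51 libraries, intensity trend, robust variances, two-sided, Benjamini-Hochberg adjustment over all genes tested per comparison. In all 24 comparisons were run, and 3 planned ones of the unmatched group were not. In 3 of the 24 (heat, heat with high light and high light end-points against controls) same-numbered libraries all deviated together with a correlation over 0.1. The main fit did not use these numbers. An alternative fit with a replicate block common to all groups called 4, 0 and 0 genes there, against 3, 0 and 0. Such a block is not a paired test within a comparison, and none was run. The fit was tested on simulated data. Tables and figures used Python 3.11.15 with pandas 2.3.3, numpy 2.4.6 and matplotlib 3.10.9.

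The rule for named genes took, per comparison, up to 3 genes higher and 3 lower with the largest called difference, the low genes with the widest group range, and a panel listed by symbol. The files and the reference (129 plastid genes, 0 with an ATCG identifier) do not pair those symbols with identifiers, and notes in the reference named 6, so of the panel only clpP could be placed, and lists of chloroplast genes by complex were not formed. Genes outside this rule, such as ATCG00150, ATCG00160, ATCG00220 and ATCG00490, were named after their values were seen. Nuclear lists were matched by locus identifier. Markers of guard cells, phloem, meristem and flower were also followed on both scales. Lower were 4 of 4 guard cell markers in drought and 3 in heat-drought (9.57% and 13.2% of all genes). Higher were 2 of 4 phloem markers in each (25.3% and 32.2% of all genes), and 0 meristem or flower markers were called in either.

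Alternatives were the values as deposited, no filter on low values, fits on only the groups compared, a replicate block and leaving out each library. Centring on the chloroplast median, calls on both scales and direct comparisons between stresses were added after seeing the data.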

Additional observations from a re-analysis of the deposited data

Results flagged for a closer look

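The effects of cold and of heat-drought on 3 neighbouring chloroplast-encoded genes differed when tested against each other. The 3 genes were named for opposite calls against the controls in these same libraries. The direct test therefore gives the size of the difference and no separate support. At the end-points, cold exceeded heat-drought by 1.96 ± 0.13 for ATCG00170, by 1.85 ± 0.09 for ATCG00180 and by 2.10 ± 0.13 for ATCG00190 (SE, log2 relative to the library median, 3 libraries against 3). The adjusted p values in limma were 3.01e-17, 1.4e-20 and 1.75e-18, and as deposited the differences were 1.57, 1.45 and 1.71. For each gene all 3 cold libraries lay above all 3 heat-drought libraries. In this comparison 41 of the 62 chloroplast-encoded genes were higher and 4 lower in cold, where 46.1% and 33.3% of all genes were.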

How the results depend on the processing

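The counts of the 62 genes called depended on the centring in the 4 broad end-points and their recoveries, and in humidity more on single libraries. As deposited they were 17 in heat-drought, 11 in drought, 12 in Cold-HL, 11 in cold, 0 in heat and 1 in high light end-points against controls, and 15, 16, 16, 1, 17 and 6 in recovery against end-point for cold, cold with high light, drought, heat, heat-drought and humidity. The matching deposited medians were 0.0763, 0.0537, 0.0958, 0.0299 and -0.0156 for the first 5 end-points, 0.00095 in heat with high light and 0.01975 in high light; -0.0253 and -0.0423 for drought and high light recovery against controls; and -0.0350, 0.0155, -0.0725, 0.0359 and -0.0541 in recovery against end-point for cold, cold with high light, drought, heat and heat-drought. Called on both scales were 3, 3, 3, 0 and 6 genes in cold, cold with high light, drought, heat and heat-drought end-points, and 5, 8, 6, 1 and 4 in their recoveries against end-point.

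Centred on the chloroplast median, the counts were 8, 7, 7, 0, 18 and 1 for the cold, cold with high light, drought, heat, heat-drought and humidity end-points, 15, 11, 14, 0 and 18 for the first 5 recoveries against end-point, 0 for high light and 1 for humidity. Without the filter 65, 75, 65, 77 and 70 genes were called in cold and cold with high light end-points and in recovery against end-point for cold, cold with high light and drought, since more genes were tested. The median of the 26 genes below 3 was -0.72 in heat-drought. Fitting only the groups compared gave 1 in heat with high light, 2 in high light and 0 in humidity end-points, 3 in drought recovery against controls, and 6, 0 and 0 in recovery against end-point for heat, high light and humidity. The causes of these changes were not tested.

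Leaving out 1 library at a time gave 52 to 55 calls in heat-drought, 45 to 54 in drought, 44 to 47 in Cold-HL, 24 to 38 in cold, 0 to 4 in heat, 0 to 1 in high light and 0 to 9 in humidity end-points; the lowest cold count was without control replicate 2 and the highest humidity count without humidity end-point replicate 2. In recovery against end-point it gave 53 to 55 in heat-drought, 35 to 46 in drought, 48 to 51 in Cold-HL, 28 to 36 in cold, 0 to 3 in heat, 0 to 2 in high light and 0 to 8 in humidity. The 8 recovery groups against controls and both comparisons of heat with high light stayed at 0 to 0. The group of the library left out was smaller in these fits, and the spread was estimated over all groups together.

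Replicate numbers paired samples in few comparisons: of 72 same-numbered pairs 22 had a correlation of deviations over 0.1, from -0.73 to 0.43. With the replicate block the counts were 56 in heat-drought, 54 in drought, 48 in Cold-HL, 38 in cold and 4 in heat end-points, and the block changed no other call by over 1.5 times. Of 50 values of named genes, 37 stayed past the threshold as deposited, 29 against the chloroplast median and 50 with the block, and none changed direction. Of 300 such values with 1 library left out, 48 lost their call. Depth limits cannot be given for rlog values.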
